A study of Xenopus laevis with 5 samples.

Results

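The genes described here encode collagen chains, 15 of the 7531 genes that the annotation of this frog array names by a single symbol. They were taken by name, as every symbol that begins with col, a number, the letter a and a number, once the suffix .L or .S was set aside. This gave 20 of 15491 probe sets, and each gene was followed by the probe set with the highest mean signal over the 5 arrays. RefSeq, in its gene table for assembly Xenopus_laevis_v10.1, lists 58 collagen genes and holds all 15, so most frog collagens were not analysed here. Another 2 probe sets, shared by the L and S copies of col2a1, were left out because each names several genes. Xenopus laevis carries an L and an S copy, called homeologs, of many genes, and the probes of one copy may pick up transcripts of its homeolog.

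Presumptive ectoderm of Xenopus laevis was cut from embryos at stage 9 to 10, cultured on fibronectin and harvested for RNA at stage 22. Embryos had received synthetic RNA at the 2-cell stage, for ICD alone in 3 samples and for ICD together with FoxJ1 in 2 samples. Every sample of both groups therefore carried ICD, which the labels do not spell out and which usually stands for the Notch intracellular domain. FoxJ1 is a forkhead transcription factor of motile cilia, and the series asks how it alters gene expression in these explants. No explants without ICD were analysed here. Each sample was hybridised to 1 single-colour Affymetrix array, and nothing in the labels says that the replicates came from separate batches of embryos. The p-values thus measure only how far these samples vary, and that variation may be technical.

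Collagens are secreted proteins of the extracellular matrix in which chains wind around each other as a triple helix. Fibrillar collagens such as types I, II, III and V build the cable-like fibrils of connective tissue, and the fibril-associated type IX sits on their surface. Type IV forms the sheet of basement membranes, the thin matrix under an epithelium, and type VI forms beaded filaments near it. Type XVIII, encoded by col18a1, is a basement membrane collagen that carries heparan sulphate chains and whose end piece can be released as endostatin. In frog and other vertebrate skin, the basement membrane anchors the inner layer of the epidermis.

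Signals are in the linear units of MAS5, the array maker's summary of a probe set. The background level of an array was set by 20 control probe sets for sequences absent from frog, as the brightest of them, and it lay between 16.9 and 28.4. Between 65.3% and 77.3% of the probe sets on an array exceeded it. On ICD replicate 3 and ICD+FoxJ1 replicate 2 the control RNAs with poly-A tails that are spiked in before labelling gave a median signal of 2.95 and 1.90, against 318 to 368 on the other 3 arrays. These arrays come from both groups. Of 25 genes that mark epidermis, the main fate of this tissue, 21 were above background on all 5 arrays.

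Both copies of col18a1 were lower with FoxJ1, about 7-fold on the log2(signal + 16) scale used for the tests, whereas no collagen gene was higher. Of the 15 collagen genes, 5 had enough signal to be tested, and 2 of these fell, 0 rose and 3 did not pass the test. The test was limma with Benjamini-Hochberg adjustment over 11618 probe sets and a threshold of 0.05, which called 3.00% of all probe sets lower and 4.54% higher, or 7.54% in either direction. At an unadjusted p under 0.05 in limma, for which no share over all probe sets is given, the same 2 collagens were lower and 0 were higher. The fall of col18a1 was already known when the members were chosen, and 5 genes are too few to read their count against the shares called.

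**Figure D1:**
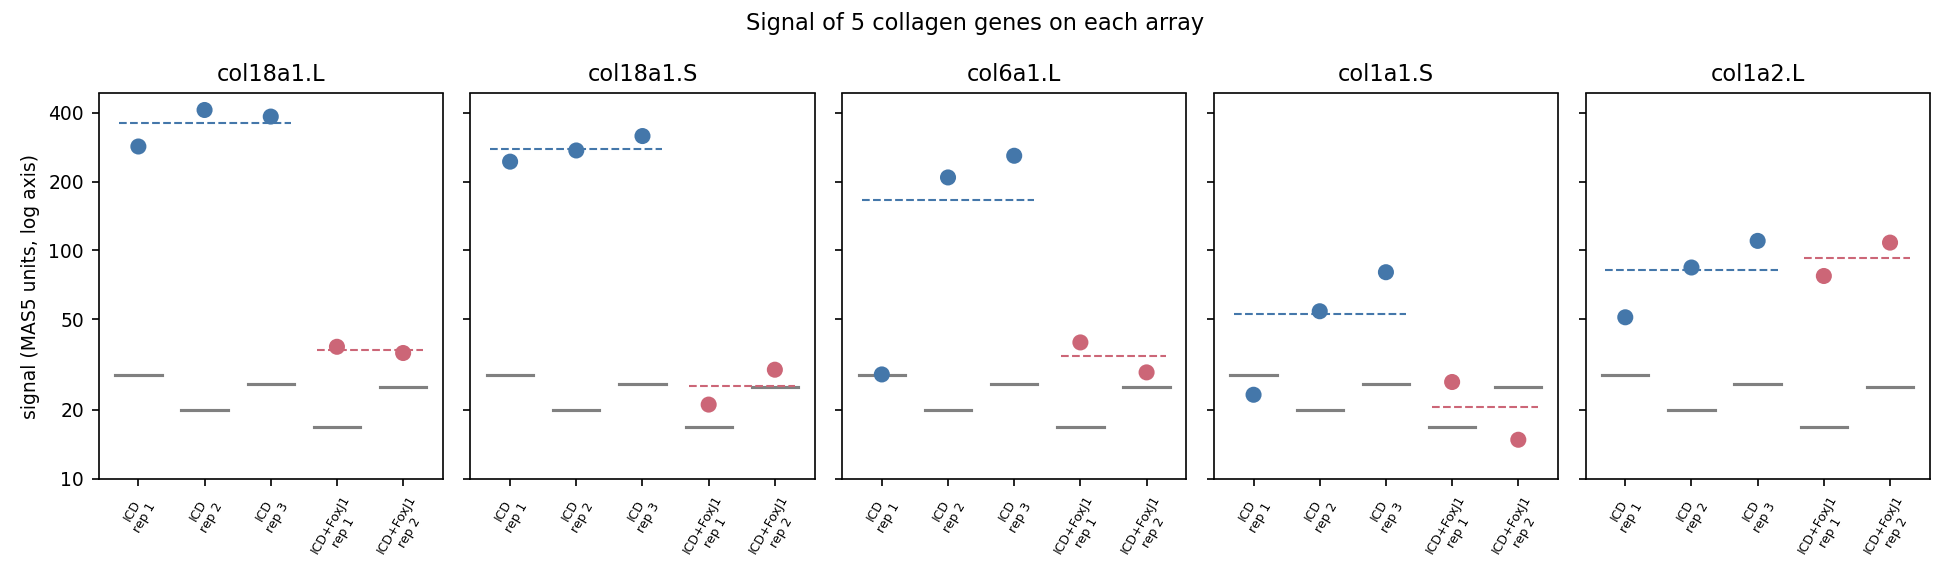
Signal of the 5 tested collagen genes on each of the 5 arrays, on a log axis in MAS5 units. Blue points are ICD arrays, red points ICD+FoxJ1 arrays, dashed lines group means and grey bars the background level of the array. The col18a1 signals of the groups do not overlap, while col6a1.L and col1a1.S are as low on ICD replicate 1 as with FoxJ1.

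The L copy of col18a1 had signals of 285, 411.9 and 385.4 on ICD replicates 1 to 3 and of 37.8 and 35.5 on the arrays with FoxJ1. The ICD mean of 361 ± 66.9 (SD, n = 3) stood against 36.65 ± 1.63 (SD, n = 2) for the arrays with FoxJ1. The groups were far apart, and every ICD array was high. On the log2 scale the difference was -2.82 (SE 0.25, 95% interval -3.40 to -2.24, limma adjusted p = 0.00135), a 7.08-fold fall.

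The S copy was low on the same arrays. Its signals were 244.6, 273.8 and 316.7 with ICD and 21.1 and 30 with FoxJ1, or 278 ± 36.3 (SD, n = 3) against 25.55 ± 6.29 (SD, n = 2). Again no array of one group reached the range of the other. The log2 difference was -2.83 (SE 0.24, 95% interval -3.39 to -2.26, limma adjusted p = 0.00135), a 7.09-fold fall. The groups lay apart in this direction in 23.1% of all tested probe sets.

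Among the 193 named genes that fell, the S copy ranked 7 and the L copy 8 by the size of the log2 difference. The difference between the homeologs in how far they fell was 0.0026 on the log2 scale. The only test run on it, an exact two-sided permutation of the 5 arrays, could not pass. The smallest p that it allowed as computed was 0.2. Because the probes may not separate the homeologs, the pair does not count as independent observations of the fall.

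With FoxJ1 the remaining col18a1 signal was close to background. It was 2.24 and 1.40 times the background level for the L copy and 1.25 and 1.19 times for the S copy, against 8.61 to 20.6 times on the ICD arrays. The size of the fall therefore depended on the number added before taking logs. With 1 added the log2 difference was -3.25 for the L and -3.41 for the S copy, and with 64 added -2.06 and -1.93.

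The difference was present among arrays of either kind of spike-in signal. Within the 3 arrays with poly-A control signal, the log2 difference was -2.74 for col18a1.L and -2.89 for col18a1.S, from 2 ICD arrays and 1 array with FoxJ1. Within the other pair of arrays it was -2.96 and -2.85. Leaving out any single array left a difference between -2.98 and -2.67, with limma adjusted p-values up to 0.0259.

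**Figure D2:**
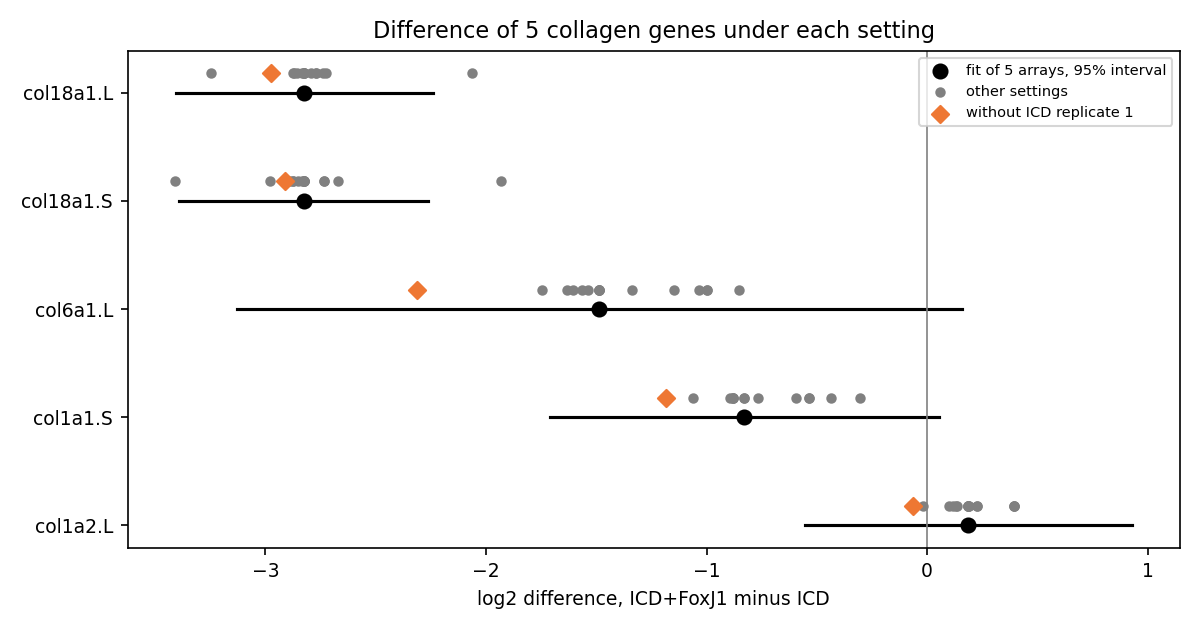
Log2 difference, ICD+FoxJ1 minus ICD, of the 5 tested collagen genes. Black points with bars are the fit of all 5 arrays with its 95% interval, grey points the alternative settings and orange diamonds the fit without ICD replicate 1. Under every setting col18a1.L and col18a1.S stay at or below -1.93, and the interval of col6a1.L reaches from -3.13 to 0.16.

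Of the other collagens, col6a1.L, a chain of the beaded filament collagen VI, split the ICD arrays. Its signals were 28.6 on ICD replicate 1, 208.6 on replicate 2 and 259.6 on replicate 3, against 39.5 and 29.2 with FoxJ1. ICD replicate 1 thus lay at the level of the arrays with FoxJ1 and at 1.01 times its background. The log2 difference of -1.49 (SE 0.71) did not pass the test (limma adjusted p = 0.242). Without ICD replicate 1 it was -2.31 and passed (limma adjusted p = 0.00112). The difference was -0.85 among the arrays with poly-A control signal, which include that replicate, and -2.61 between the other 2 arrays.

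Col1a1.S, a chain of the fibrillar collagen I, was also low on ICD replicate 1, at a dimmer signal. It measured 23.3, 54.1 and 80.2 with ICD and 26.5 and 14.8 with FoxJ1, so that ICD replicate 1 lay between the arrays with FoxJ1. It was above background on 2 of 3 ICD arrays and on 1 of 2 arrays with FoxJ1. The log2 difference was -0.83 (SE 0.38, limma adjusted p = 0.226), and without ICD replicate 1 it was -1.18 and passed (limma adjusted p = 0.0286). A second, dimmer probe set of this gene gave 20.2, 45.8 and 51.2 against 13 and 9.9, with a difference of -0.96 (SE 0.30, limma adjusted p = 0.0992). Its mean with FoxJ1 was 11.45, under the mean signal of 20.45 needed for the test. It was tested only because of its signal with ICD and could hardly have come out higher. Without ICD replicate 1, 4 of the 5 tested collagens were thus lower, and 5.65% of all probe sets.

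The partner chain of collagen I, encoded by col1a2.L, did not share this pattern. Its signals were 50.9, 84.1 and 110 with ICD and 77.2 and 108.1 with FoxJ1, and the groups overlapped. The log2 difference was 0.19 (SE 0.32, 95% interval -0.56 to 0.93, limma adjusted p = 0.761). Its sign turned to -0.062 without ICD replicate 1 and to -0.020 without ICD+FoxJ1 replicate 2. All 5 tested collagens were lowest among the ICD arrays on ICD replicate 1, as were 42.2% of all tested probe sets.

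Relative to the mean of ICD replicates 2 and 3, the log2 level on ICD replicate 1 lay at -0.46 in col18a1.L, -0.25 in col18a1.S, -0.75 in col1a2.L, -1.06 in col1a1.S and -2.48 in col6a1.L. The arrays with FoxJ1, set against the same mean, lay at -2.98, -2.91, -0.062, -1.18 and -2.31 in these genes. Set against ICD replicate 1 itself, the arrays with FoxJ1 lay at -2.52 in col18a1.L and -2.66 in col18a1.S. In col1a2.L they lay at 0.68, in col6a1.L at 0.17 and in col1a1.S at -0.12.

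In the RefSeq gene order, col18a1.L and col6a1.L lie on the same chromosome with 2 protein-coding genes between them, and col6a2.L follows col6a1.L directly. Col6a2.L, the partner chain of collagen VI, was at or below background on all 5 arrays, with signals of 9.3, 14.3 and 20.3 with ICD and 10.5 and 21.5 with FoxJ1. Nup35.L, a nuclear pore gene 5 places before col18a1.L, differed by -0.90 (SE 0.33, limma adjusted p = 0.152), and its homeolog nup35.S, 2 places before col18a1.S, by 0.092 (SE 0.21). Ftcd.L, 5 places after col18a1.L, differed by 0.38 (SE 0.25, limma adjusted p = 0.393).

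**Figure D3:**
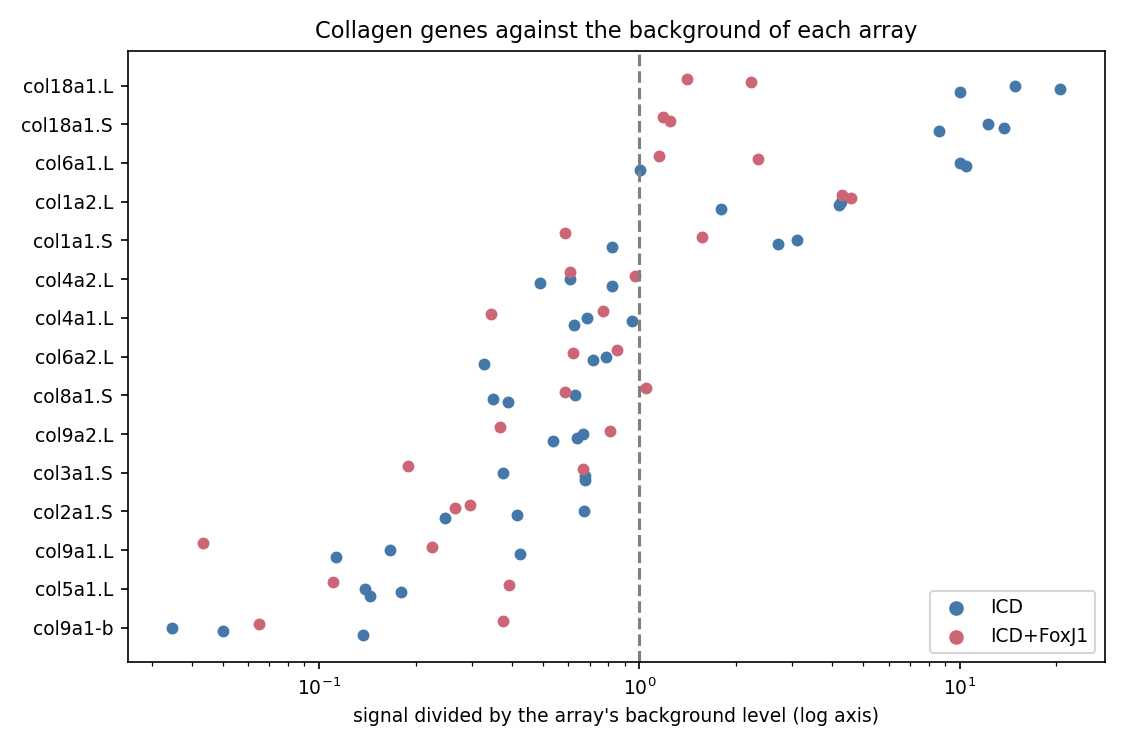
Signal of each of the 15 collagen genes divided by the background level of the same array, on a log axis. Each point is 1 array, blue for ICD and red for ICD+FoxJ1, and the dashed line marks the background level. The 10 genes below col1a1.S lie at or under the line, apart from col8a1.S on ICD+FoxJ1 replicate 2.

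The remaining 10 collagen genes had almost no signal on these arrays. Of all 15, 9 were at or below background on every array, 4 were above it on every array and 2 on some. The highest signal among the 10 was 26.6, in col8a1.S on ICD+FoxJ1 replicate 2, where the background was 25.3. The chains of collagen IV, the main sheet of basement membranes, were among them. Col4a1.L gave 17.7, 19 and 17.7 with ICD and 5.8 and 19.5 with FoxJ1, and col4a2.L gave 23.3, 9.8 and 15.7 against 16.4 and 15.4. A second probe set of col4a1.L exceeded background on 1 array, with 17.1 on ICD+FoxJ1 replicate 1. A probe set without signal does not show that its gene was silent, since it may bind its RNA poorly.

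Of the 5 fibrillar genes, col2a1.S, col3a1.S and col5a1.L were at background on all arrays, with means of 8.94, 11.7 and 4.14 over the 5 arrays. So were the 3 genes of collagen IX, col9a1.L, col9a1-b and col9a2.L, with signals between 0.9 and 17.2. The annotation of single symbols held 0 genes of collagen VII and of the transmembrane collagens. None of the 10 dim genes entered the test, whose filter removed the 25% of probe sets with a mean signal under 20.45. The collagen just inside the filter was col1a1.S, with a mean of 39.78, and the one just outside was col4a2.L, with 16.12.

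Fitted without the filter, the 10 dim collagens differed by -0.33 to 0.29 on the log2 scale, 5 of them below 0. Their smallest unadjusted p in limma was 0.156. In that fit the call was again 2 of 15 collagens lower, against 1.67% of all probe sets. The median log2 difference was -1.49 over the 5 tested collagens and -0.21 over all 15, where it was -0.026 over all tested probe sets and -0.0093 over all probe sets. Neither median is evidence of a shift, since the tested genes are few and the dim ones carry little signal.

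Some genes that make, fold, hold or cut collagen, or that work in the matrix around it, also differed with FoxJ1. Over the lists together most of the tested genes did not pass the test, and most of those that passed were lower. The genes were taken from 6 lists, with 1 probe set per gene. The lists were drawn up with earlier results of these data known. Their counts, over every tested member of a list, therefore describe these genes and carry no comparison with the share called among all probe sets, 3.00% lower and 4.54% higher. The same holds for their counts at an unadjusted p, for which no share over all probe sets is given here. The number of all probe sets called lower also moved when an array was left out. It was 349 with all 5 arrays, 656 without ICD replicate 1, 210 without ICD replicate 2 and 166 without ICD replicate 3. A list count that moves in such fits is therefore no trait of that list alone.

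**Figure D4:**
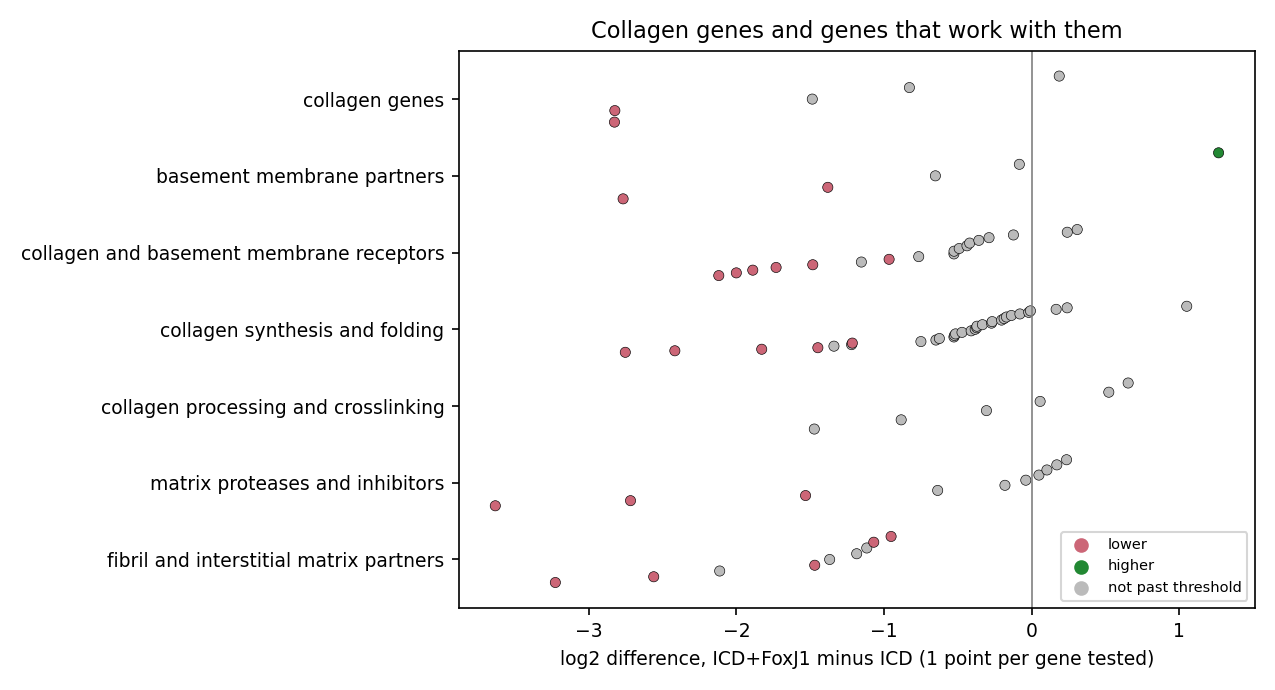
Log2 difference, ICD+FoxJ1 minus ICD, of each tested gene in the collagen group and in 6 lists of genes that work with collagens. Red points are genes called lower, green points those called higher and grey points those that did not pass the limma test. Points of a row are spread vertically only to keep them apart. Fbln1.L, at 1.27, is the single gene that rose, and mmp3.L, at -3.63, lies farthest to the left.

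Of 34 symbols for basement membrane partners, 5 genes were measured, and 2 fell, 1 rose and 2 did not pass. Sparc.S, a matrix glycoprotein that binds collagen, had signals of 521.9, 1007.7 and 1061.4 with ICD and 127.3 and 90.3 with FoxJ1. Its log2 difference was -2.77 (SE 0.35, limma adjusted p = 0.00412), and that of sparc.L was -1.38. Fbln1.L, the matrix protein fibulin-1, had signals of 18.7, 30.5 and 35.9 with ICD and 67.4 and 116.7 with FoxJ1, and it rose by 1.27 (SE 0.29, limma adjusted p = 0.0421). Nid2.L, a nidogen that links laminin with collagen IV, differed by -0.65 (SE 0.37) and ntn1.L, a netrin, by -0.084 (SE 0.24). The count lower was 1 without ICD replicate 2, ICD replicate 3 or ICD+FoxJ1 replicate 1 and 0 without ICD+FoxJ1 replicate 2, and fbln1.L passed in none of these 4 fits.

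Receptors for collagen and basement membrane fell in 6 of 18 tested genes, and 0 rose. At an unadjusted p under 0.05 in limma, 7 were lower and 0 higher. Itgb1.S, the beta 1 integrin chain shared by the collagen-binding integrins, went from 1257.3, 1425.6 and 1596.3 to 368.3 and 319.1. Its difference was -2.0 (SE 0.21, limma adjusted p = 0.00217), and that of its homeolog itgb1.L was -1.73, although a dimmer probe set of the L copy, at -0.91, did not pass. Dag1.L, the laminin receptor dystroglycan, fell by 2.12, and itga3.L, an integrin chain for laminins, by 1.48. Bcam.L, a laminin receptor, and sdc2.L, a syndecan, also fell, list members that were named outside the naming rule after their values were seen. A dimmer probe set of bcam.L, at -1.47, passed as well. Its mean with FoxJ1 was 10.55, under the filter, so it was tested only because of its signal with ICD and could hardly have come out higher. A dimmer probe set of sdc2.L, at -0.70, and the homeolog sdc2.S, at -0.77, did not pass. With the probe sets of each gene averaged, the number of receptor genes called lower was 4. Gpc4.L, a glypican (-1.15), and sdc4.L, a syndecan (-0.49), did not pass. The count was 3 without ICD replicate 3 or ICD+FoxJ1 replicate 1 and 2 without ICD+FoxJ1 replicate 2.

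Of 31 genes for collagen synthesis and folding, 5 fell, 0 rose and 26 did not pass. At an unadjusted p under 0.05 in limma, 12 were lower and 0 higher. Prolyl isomerases of the endoplasmic reticulum, which help proline-rich chains to fold, were among both those that fell and those that did not pass. Fkbp9.S went from 454.9, 717.9 and 692.1 to 100.3 and 58.1, a difference of -2.75 (SE 0.31, limma adjusted p = 0.00257), and a dimmer probe set at -2.09 passed as well. Fkbp10.L fell by 2.42 and fkbp11.L by 1.83. P3h1.L, a prolyl hydroxylase that modifies collagen chains, fell by 1.45, and fkbp7.L, a list member named outside the naming rule after its value was seen, by 1.21. Of the other isomerases, named here on the same footing, fkbp9.L (-1.22, limma adjusted p = 0.0505), ppib.S (-0.33), ppib.L (-0.20) and fkbp14.L (0.24) did not pass. The bright genes p4hb.L, a subunit of the prolyl hydroxylase of collagen and a disulfide isomerase (-0.41), and calr.S, the chaperone calreticulin (-0.63), did not pass. The count was 3 without ICD replicate 2 and 1 without either array with FoxJ1.

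Among genes that process or crosslink collagen outside the cell, 0 of 6 tested changed in limma. At an unadjusted p under 0.05, 2 were lower and 1 was higher, and without ICD replicate 1 the number called lower was 1. Loxl1.L, 1 of the 2 lower at an unadjusted p, had a mean of 17.35 with FoxJ1, under the filter, and could hardly have come out higher. Furin.L, a proprotein convertase, differed by 0.52 (SE 0.21) and tll1.S, a tolloid-like protease of the kind that trims procollagen, by -0.88 (SE 0.36).

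Matrix proteases and their inhibitors fell in 3 of 10 tested genes, and 0 rose, with 4 lower and 0 higher at an unadjusted p under 0.05 in limma. They were mmp3.L, a stromelysin (-3.63, SE 0.40), mmp28.L, epilysin (-2.72, SE 0.32), and mmp14.L, a membrane-bound protease that cuts fibrillar collagen (-1.53, SE 0.32). Mmp3.L had signals of 781.9, 952.3 and 732.2 with ICD and 93.2 and 25.3 with FoxJ1, the last at the background level of its array. Mmp14.L had signals of 92.9, 151.2 and 207 with ICD and 37.8 and 40.6 with FoxJ1 (limma adjusted p = 0.0317). Mmp28.L had a mean of 20.1 with FoxJ1, under the filter, so it was tested only because of its signal with ICD and could hardly have come out higher. The cathepsin genes ctsb.S (0.10) and ctsv.L (-0.18) did not pass. The count lower was 2 without ICD replicate 2 or ICD replicate 3 and stayed at 3 without ICD replicate 1.

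Of 9 tested genes for fibril and interstitial matrix partners, 5 fell and 0 rose. For 6 of these 9 the mean with FoxJ1 was under the filter, so they were tested only because of their signal with ICD and could hardly have come out higher. At an unadjusted p under 0.05 in limma all 9 were lower. Fbn3.L, a fibrillin, fell by 3.23 (SE 0.44), and a dimmer probe set, at -1.24, did not pass. Hapln3.L, a link protein of hyaluronan, fell by 2.56 (SE 0.35). With FoxJ1 the signals of fbn3.L were 30.5 and 24.4 and those of hapln3.L 26.8 and 24.2, each gene above background on 1 of 2 arrays. Hapln3.S and bgn.L, the small proteoglycan biglycan, did not exceed background with FoxJ1 and were at least 2.78-fold and at least 1.81-fold lower (limma adjusted p = 0.0328 and 0.0462). Fn1.S, fibronectin, fell by 0.95, a list member named outside the naming rule after its value was seen. Of its 3 dimmer probe sets, 1 passed at -1.25. Mfap2.L, a microfibril protein, and ltbp1.S, which binds latent TGF-beta, were likewise at or below background with FoxJ1, at least 2.83-fold and at least 2.98-fold lower, and did not pass (limma adjusted p = 0.0886 and 0.140). The count lower was 8 without ICD replicate 1, 2 without ICD replicate 2 or 3 and 0 without either array with FoxJ1.

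The 5 named genes outside the collagens whose profile over the 5 arrays was most like that of col18a1 were, in order, ptgs1.S, mmp28.L, dynll1.S, fkbp9.S and hapln3.L. Likeness was the Euclidean distance between log2 profiles, each centred on its own mean, to the mean profile of both col18a1 copies, among 6097 named genes. The distances were 0.50, 0.55, 0.56, 0.60 and 0.63, where each col18a1 copy lay at 0.19 and col6a1.L at 2.30. The value of 0.19 is small in part by construction, since the reference profile was made from both copies. Ptgs1.S, a cyclooxygenase gene of prostaglandin synthesis, had signals of 189.2, 280.6 and 270.9 with ICD and 35.4 and 25.3 with FoxJ1. Dynll1.S, a dynein light chain gene, went from 1031.7, 997.9 and 1539.1 to 158.8 and 221.2. Both had a high level on every ICD array and a low one on both others, the pattern by which they were picked, so their differences are a description.

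**Figure D5:**
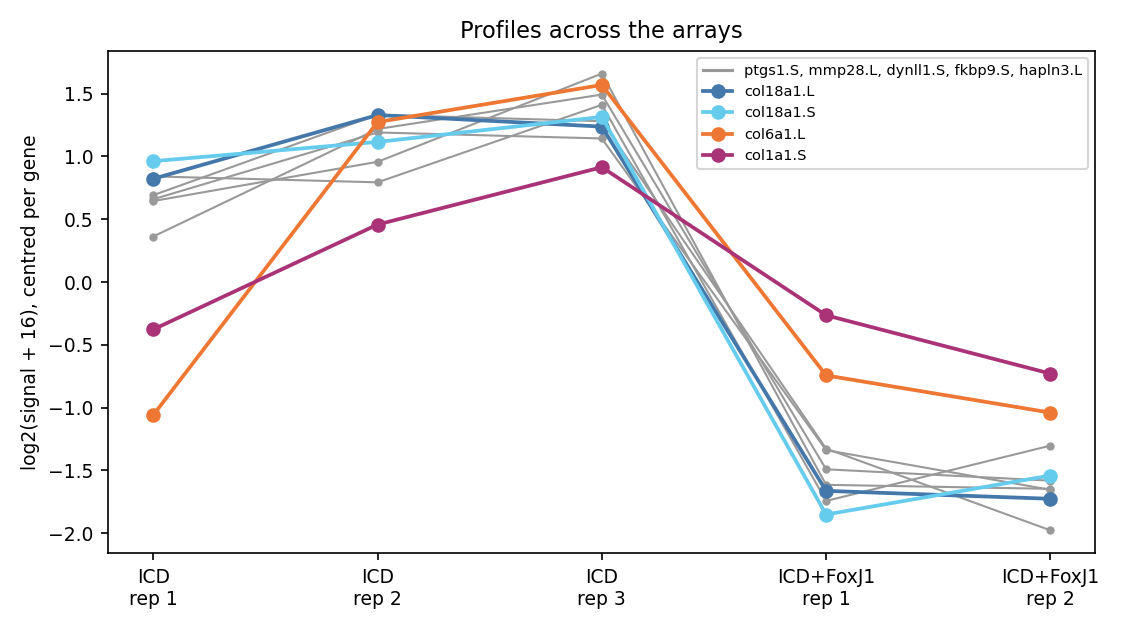
Log2(signal + 16) on each array, centred on the mean of each gene. Lines join the values of 1 gene, with col18a1.L in dark blue, col18a1.S in light blue, col6a1.L in orange, col1a1.S in purple and the 5 genes most like col18a1 in grey. On ICD replicate 1 col6a1.L and col1a1.S lie below their own mean, while both col18a1 copies lie above it.

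Markers of cell types moved as well. The marker lists, too, were drawn up with earlier results of these data known. Their counts carry no comparison with the share called among all probe sets, 3.00% lower and 4.54% higher. Nor do their counts at an unadjusted p, for which no share over all probe sets is given here. In bulk samples, fewer cells of a type and less RNA per cell cannot be told apart. Of 15 tested genes that mark multiciliated cells, 13 rose and 0 fell, and their summed signal was 3429 to 7785 with ICD and 27061 to 32794 with FoxJ1. The lowest of these sums was that of ICD replicate 1. Tekt2.L, 1 of the 13, had a mean of 16.2 with ICD, under the filter, and could hardly have come out lower. Of 24 tested epidermal markers, 5 fell and 0 rose, and at an unadjusted p under 0.05 in limma 7 were lower and 3 higher. Their median log2 difference was -0.029, with summed signals of 56892 to 75103 and 51073 to 61779. The falls included tp63.L, the factor of basal epidermal cells, from 149 ± 3.17 (SD, n = 3) to 31.25 ± 7.0 (SD, n = 2), and krt19.L, a keratin. Grhl3.L, an epidermal transcription factor, differed by 0.82 and the keratin krt12.2.S by 0.84, and neither passed. Krt12.2.S had a mean of 20.23 with ICD, under the filter of 20.45, so it was tested only because of its signal with FoxJ1. The part of these markers in the fall of col18a1 was not tested.

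Markers of other cell types, several of which make collagen in the embryo, were checked on the same arrays. The 3 mesenchyme and fibroblast genes summed to 54.4 to 71.1 with ICD and 42.1 to 56.5 with FoxJ1, and 0 were above background on all arrays. The 9 notochord genes summed to 121.6 to 145.3 and 90.8 to 108.1, with shh.L, foxa4.L and foxa4.S among 4 genes at or below background on every array. The 17 muscle and somite genes summed to 1835 to 3253 and 2333 to 3314, the lowest again on ICD replicate 1, and 2 rose and 1 fell. Pax3.L gave the largest part of these sums, with 847, 2328.4 and 2133.4 with ICD and 1636 and 2578.1 with FoxJ1. On every array 8 of the 17 were at or below background. Tnnc2.S, 1 of the 2 that rose, had a mean of 9.6 with ICD, under the filter. It was tested only because of its signal with FoxJ1 and could hardly have come out lower. The 7 neural crest genes summed to 110.1 on ICD replicate 1, 231.8 and 326.2 on the other ICD arrays and 176 and 188.8 with FoxJ1, and snai2.S and snai2.L fell while sox9.S rose. Of the 4 tested, 3 had a mean with FoxJ1 under the filter, both snai2 copies among them, and could hardly have come out higher. All 7 were lowest among the ICD arrays on ICD replicate 1, as were 42.2% of all tested probe sets. The trait was not particular to neural crest. It held for 15 of 15 multiciliated, 8 of 12 neural, 12 of 25 epidermal and 1 of 9 endoderm genes. Col6a1.L and col1a1.S were low on the same array, and the part of the neural crest genes in that pattern was not tested.

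The neural, endoderm and blood marker lists completed the check. The 12 neural genes summed to 1079 to 1668 with ICD and 976.4 to 1070 with FoxJ1, with 3 lower and 0 higher of 7 tested. At an unadjusted p under 0.05 in limma, 4 were lower and 1 was higher. The higher one was sox3.S, which differed by 1.27 (SE 0.34, limma adjusted p = 0.0681), and its homeolog sox3.L differed by 0.61. Ncam1.S, 1 of the 3 called lower, had a mean of 14.1 with FoxJ1, under the filter. It was tested only because of its signal with ICD and could hardly have come out higher. The 9 endoderm genes summed to 859.8 to 1565 and 605.4 to 1123, and 0 of 3 tested changed in limma, also at an unadjusted p under 0.05. A2m.S gave most of each endoderm sum, with 574.7, 614.9 and 1416.3 with ICD and 407.6 and 919.2 with FoxJ1. On every array 6 of the 9 were at or below background. The 8 genes of blood and endothelium summed to 113.5 to 137.3 and 154.2 to 185.1, and 0 of 3 tested changed, with 1 higher at an unadjusted p under 0.05 in limma. That gene, tek.S, had a mean of 17.8 with ICD, under the filter, and could hardly have come out lower.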

How the data were processed

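Each probe set has 1 deposited intensity, which the authors obtained with MAS5 according to the submitters' processing notes (version and settings not given in the sources used here). Leaving out 2% of probe sets at each end, array means were 200.03, 200.03, 200.03, 200.02 and 200.03, so the arrays had been scaled. Of 15611 probe sets, 120 are controls and were left out. In the platform annotation 9304 probe sets bear 1 symbol, 195 bear several and 6112 bear none. The 25% of the other probe sets with the lowest mean were left out, and log2(signal + 16) of 11618 was fitted with limma 3.58.1 in R 4.3.3 (lmFit, eBayes with a trend, two-sided, Benjamini-Hochberg). Differences are ICD+FoxJ1 minus ICD. An "at least" fold sets the dimmer arrays to the higher of background and their own signal. The code was tested on simulated data. Figures were drawn with matplotlib 3.10.9.

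The members, the lists and the alternatives were chosen with earlier results of these data known. The rule for named genes took every collagen, with values on each array for those past the threshold and for the 5 brightest of the others. From each related list it took up to 4 genes past the threshold with the smallest p and up to 2 of the brightest others, and it took the 5 genes most like col18a1. Lists were matched by symbol or by a synonym that a single gene bears. Precision is limited by the 5 arrays. Collagen sequences were not used here.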

Additional observations from a re-analysis of the deposited data

How the results depend on the processing

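In all 16 alternatives col18a1.L and col18a1.S were lower and past the threshold, with limma adjusted p-values between 0.000315 and 0.0449. The alternatives were another pseudocount (1 or 64), no filter or one at 50%, quantile or median scaling, no variance trend, averaged probe sets, 2 blocks, the arrays with poly-A control signal alone and each array left out. In each of them 0 collagens were higher. The number lower was 2 except without ICD replicate 1, where it was 4 (the cause was not tested), and the range over single arrays left out was 2 to 4. The median over the tested collagens was -0.21 without a filter, because 15 genes then entered, and -2.31 to -0.999 with single arrays left out. Col1a2.L turned to -0.062 without ICD replicate 1 and to -0.020 without ICD+FoxJ1 replicate 2, in a range of -0.062 to 0.39 over single arrays left out, and was never called. The alternatives for col6a1.L, col1a1.S and col1a2.L, for the related lists and for all probe sets were added after the data were seen.

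Replicate numbers 1 and 2 occur in both groups, and the labels do not say that a number marks a shared batch. Deviations from the group mean correlated with r = -0.056 for number 1 and -0.32 for number 2 across probe sets. With 2 arrays in the group with FoxJ1, their deviations mirror each other. Unlike numbers thus gave the same sizes with the other sign, 0.056 for ICD replicate 1 and 0.32 for ICD replicate 2. The correlations therefore cannot decide whether the samples are paired, and the main fit did not treat them as paired. With the replicate block, which leaves ICD replicate 3 without a partner and so without weight, the differences were -2.77 for col18a1.L and -2.73 for col18a1.S (limma adjusted p = 0.0129 and 0.0120). The number of probe sets called lower fell to 75 from 349 and of those called higher to 247 from 527. With the arrays with and without poly-A control signal as a block they were 213 lower, and with only the arrays with that signal 19 lower and 150 higher. Without single arrays the lower ones ranged from 34 to 656 and the higher ones from 129 to 748. On the 3 arrays with poly-A control signal alone, 0 or 1 gene per related list was called lower.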

Other observations

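The named genes outside the collagens whose profile over the 5 arrays was most like that of col6a1.L were searched for after its values had been seen. The nearest was serpinh1.S, which encodes Hsp47, a chaperone of collagen in the endoplasmic reticulum, at a distance of 0.37. Its signals were 26.5, 153.9 and 234.8 with ICD and 43.5 and 23 with FoxJ1. The next was loxl1.L, a lysyl oxidase that crosslinks matrix fibres, at 0.66, with 20.9, 94.5 and 176.3 against 14.6 and 20.1. Rgs10.S, a regulator of G protein signalling, followed at 0.68 with 27.6, 113.3 and 139.8 against 18.3 and 19.3. All 3 were low on ICD replicate 1 and on both arrays with FoxJ1, and high on the other 2 ICD arrays, and 0 of them passed the limma test on 5 arrays. Genes picked for a likeness over 5 arrays share the peculiarities of those arrays, so this is a description of the libraries.

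Of the 2 probe sets shared by col2a1.S and col2a1.L, which encode the fibrillar collagen of cartilage and notochord sheath, the brighter gave 6.8, 23.3 and 29.4 with ICD and 8.5 and 8.1 with FoxJ1. It exceeded background on ICD replicates 2 and 3. The other gave 1.5, 12.9 and 22.1 against 2 and 18, all at or below background.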
